A study of Homo sapiens with 18 samples.

Results

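The collagen genes of the RNA-seq data were studied in A2780, an ovarian carcinoma cell line, and in Acis (A2780cis), its cisplatin-resistant derivative. A gene was taken as a collagen gene when its name in the count table was COL, a number, A and a number with nothing after it, which gave 34 of the 23622 genes listed. Control cells of both lines received no cisplatin during the experiment, and treated cells received 200 µM cisplatin for 3 h. Acis cells of both groups had in addition been exposed to 1 µM cisplatin at every 3 passages of culture, which A2780 cells had not, so the history of the drug and the line cannot be told apart. The 4 groups are A2780 control, A2780 cisplatin, Acis control and Acis cisplatin, with 3 libraries each. The study's methods mention triplicates without saying whether the cultures were independent, and several pairs of replicates were closer than counting noise alone would give, so p-values measure only the spread between these libraries, which may be technical. ATAC-seq, which maps open chromatin, gave 1 list of peaks per group.

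Collagens are the main structural proteins of the extracellular matrix. Each molecule consists of chains that wind around each other into a rod-like helix, and each gene encodes a single kind of chain. Fibrillar collagens such as types I, III, V and XI assemble into fibrils, network collagens such as type IV form the sheets of basement membranes, fibril-associated collagens such as types XII and XIV sit on the surface of fibrils, and type VI collagen forms beaded filaments around cells. Some molecules need chains from different genes. Type I collagen is usually built of COL1A1 and COL1A2 chains, and the classical type VI molecule contains COL6A1, COL6A2 and COL6A3 chains. In solid tissue fibroblasts make most of the fibrillar collagen, and epithelial tumor cells can express individual chains themselves.

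Between 4130644 and 5072216 reads were counted per library. Of the 34 collagen genes, 21 passed the filter on low counts and were tested among 15760 genes. Of these, 5 had a mean under 10 normalized counts in both groups of 1 line, namely COL1A2, COL2A1, COL4A6 and COL9A2 in Acis and COL14A1 in A2780. These 5 passed the filter only through the other line, so the direction of their line difference was set with it. The other 13 genes (COL4A1, COL4A2, COL5A3, COL6A5, COL6A6, COL9A1, COL9A3, COL13A1, COL15A1, COL16A1, COL17A1, COL19A1 and COL20A1) had between 11 and 63 counts in total over the 12 libraries and were not tested. COL4A1 and COL4A2, which encode the most widespread chains of basement membrane collagen, were among them, with 28 and 63 counts over all libraries. With the filter left out, COL5A3, COL6A5, COL6A6, COL9A1, COL9A3 and COL20A1 were called lower in Acis control and COL16A1 higher. The share of all genes called without the filter was not computed. Their counts were small, for example 13 against 0 for COL9A1 and 16 against 2 for COL5A3 in the A2780 and Acis control groups. Normalized counts are reads scaled to the mean library size of 4572775.

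Markers of cell types were examined first. Both lines were labelled as ovarian carcinoma, an epithelial tumor, yet the epithelial marker EPCAM had a mean of only 3.55 normalized counts in A2780 control and 0.733 in Acis control. Over the 5 epithelial markers of 9 that were listed in the table, the summed level was 78.8 to 111.0 normalized counts in A2780 control and 175.6 to 203.7 in Acis control. Of the 3 that were tested, 1 was higher (KRT18, log2 difference 2.49) and 1 lower (KRT8, -1.95) in Acis control past both thresholds. Over all tested genes 6.99% were higher and 12.2% lower, and the third marker, MUC1, differed by -0.11. The summed level of 9 fibroblast markers was 2820 to 2918 in A2780 control and 713.0 to 756.9 in Acis control. PDGFRA, a growth factor receptor of mesenchymal cells, fell from 1015 ± 27.4 (SD, n = 3) in A2780 control to 18.4 ± 4.11 in Acis control, whereas THY1 was 503.7 ± 15.8 and 516.0 ± 3.13. Of the fibroblast markers, 6 were lower and 1 was higher in Acis control past both thresholds, where 12.2% of all tested genes were lower and 6.99% higher. The marker that was higher was TWIST2, while TWIST1 was among the 6 that were lower. In this list 2 markers, DCN and LUM, also belong to the fibril partners described further on. CD68, the only blood marker listed, did not exceed 6.56 normalized counts in any library. Their part in the collagen differences was not tested, and in bulk RNA fewer cells of a type and less RNA per cell cannot be told apart.

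The first comparison asked how the collagen genes of the resistant line differ from those of the parental line before treatment. The type I chains and COL6A3 were close to absent in Acis control, and COL11A1 and COL12A1 were high there and low in A2780 control. Past both thresholds, an adjusted p under 0.05 and an absolute log2 difference of at least 1, 15 of the 21 tested collagen genes differed between the lines, 6 higher and 9 lower in Acis. Over all tested genes 19.1% passed, 6.99% as higher and 12.2% as lower. The 15 include the 5 genes that passed the filter only through 1 line. The median log2 difference of the tested collagen genes was -0.01, as was that of all tested genes, and the genes called lay in both directions.

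**Figure D1:**
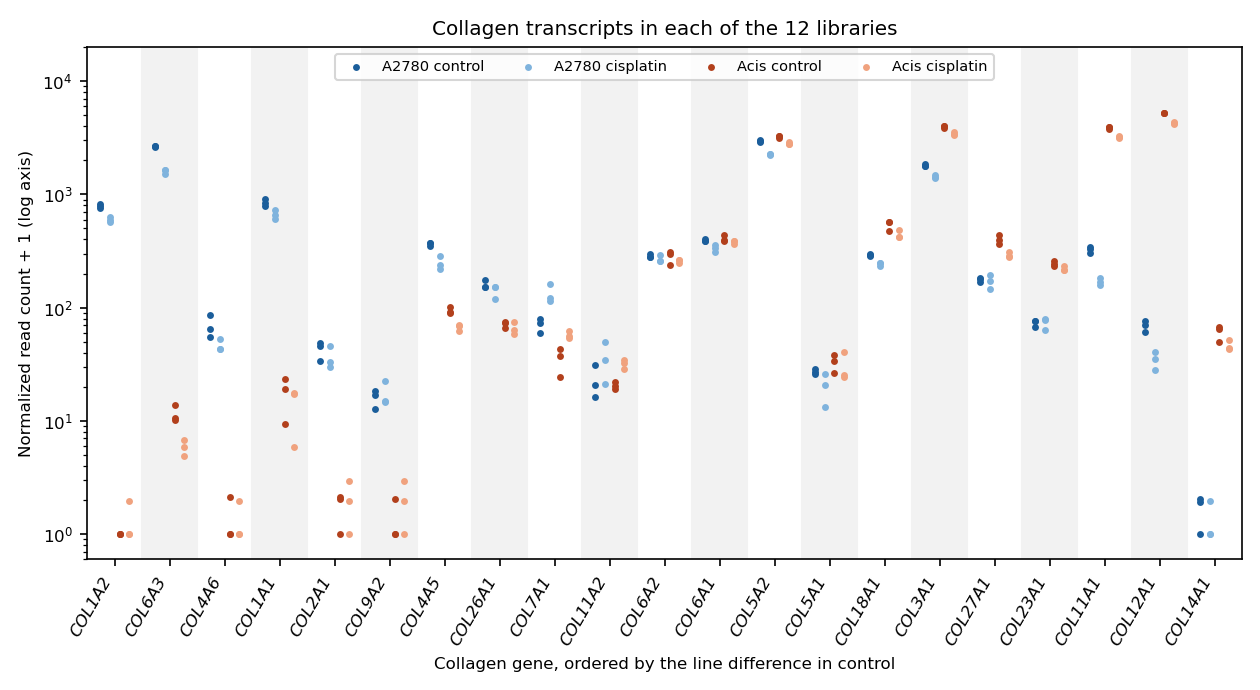
Normalized read count plus 1 (log axis) of the 21 tested collagen genes in each of the 12 libraries, 1 point per library, with genes ordered by the line difference in control (lowest in Acis at left). COL1A2, at 0 in all Acis control libraries, stands at the left, COL5A2, COL6A1 and COL6A2 lie at like levels in both lines, and COL12A1, at 5230 or more in Acis control, lies near the right.

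Among the fibrillar collagens, COL1A2 had 783, 815 and 762 normalized counts in the A2780 control libraries and 0 in all 3 Acis control libraries. COL1A2 was thus at least 723.8-fold lower in Acis control, computed against a floor of 3 counts over the group (edgeR quasi-likelihood test, adjusted p = 1.53e-24). COL1A1, its partner chain, had 902, 841 and 787 normalized counts in A2780 control and 8.49, 22.35 and 18.2 in Acis control. The groups of COL1A1 did not overlap, and its log2 difference was -5.69 (SE 0.15, adjusted p = 1.32e-22), so COL1A1 was low in Acis control but had reads in every library, where COL1A2 had none. Per kilobase of exon, the level of COL1A1 in A2780 control was 1.29 ± 0.082 (SD, n = 3) times that of COL1A2. COL2A1, the chain of cartilage collagen, had 127 counts in the A2780 control group and 2 in the Acis control group, a ratio of 57.4 with a 95% counting interval of 15.6 to 479.2.

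COL11A1, a chain of type XI collagen that takes part in nucleating fibrils, had 305, 342 and 329 normalized counts in A2780 control and 3919, 3942 and 3786 in Acis control. This was a log2 difference of 3.58 (SE 0.040, adjusted p = 2.20e-30), or 11.96-fold, with no overlap between libraries. COL3A1, the chain of type III collagen, was high in both lines. It had 1791, 1842 and 1771 normalized counts in A2780 control and 3975, 3991 and 3862 in Acis control, a log2 difference of 1.13 (SE 0.029, adjusted p = 1.40e-22). COL27A1, a fibrillar chain of cartilage, was higher in Acis control by 1.19 (SE 0.080) on the log2 scale. COL5A2, which regulates fibril diameter in type V collagen, differed by only 0.14 (SE 0.028, adjusted p = 7.98e-05), from 2876, 2963 and 3015 normalized counts in A2780 control to 3286, 3302 and 3164 in Acis control. COL5A1 and COL11A2 did not pass the test (0.28 and -0.12 on the log2 scale, adjusted p = 0.313 and 0.757).

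Among the fibril-associated collagens, COL12A1 had the most normalized counts of all collagen genes in Acis control, not divided by length. It had 69.0, 75.9 and 59.75 normalized counts in A2780 control and 5230, 5239 and 5252 in Acis control, which was 76.1-fold higher (log2 difference 6.25, SE 0.050, adjusted p = 1.57e-33). COL14A1, the related chain of type XIV collagen, had 2 counts in the A2780 control group and 165 in the Acis control group, a ratio of 91.3 with a 95% counting interval of 24.9 to 759.9. COL9A2, a chain of type IX collagen found on cartilage fibrils, went the other way, with 46 counts in A2780 control and 1 in Acis control, a ratio of 41.6 (95% counting interval 7.101 to 1678). Of the 3 tested genes of this class, COL12A1 and COL14A1 were thus higher and COL9A2 lower in Acis. Over all tested genes 6.99% were higher and 12.2% lower. COL14A1 and COL9A2 passed the filter only through the line where they were high, so their direction was set with it.

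The type VI genes did not move together. COL6A3 had 2664, 2658 and 2604 normalized counts in A2780 control and 9.55, 12.8 and 9.11 in Acis control, which was 249.0-fold lower (log2 difference -7.96, SE 0.079, adjusted p = 1.48e-31). COL6A1 and COL6A2, which encode the other chains of the same molecule, did not pass the test (log2 differences 0.07 with SE 0.060 and -0.01 with SE 0.077, adjusted p = 0.372 and 0.920). Their libraries overlapped between the lines, from 385.4 to 399.0 in A2780 control and 389.6 to 441.4 in Acis control for COL6A1. Per kilobase of exon, the ratio of COL6A3 to COL6A1 was 1.74 ± 0.052 (SD, n = 3) in A2780 control and 0.00665 ± 0.0016 in Acis control, while the ratio of COL6A1 to COL6A2 was 1.33 ± 0.023 and 1.42 ± 0.20.

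The network collagens COL4A5 and COL4A6 encode chains of the basement membranes of kidney, skin and smooth muscle. They lie head to head on chromosome X and are transcribed away from each other from starts 341 bp apart. COL4A5 had 370.2, 351 and 368 normalized counts in A2780 control and 100.8, 89.4 and 91.1 in Acis control, a log2 difference of -1.95 (SE 0.092, adjusted p = 1.49e-16). COL4A6 had 84.9, 53.8 and 64.0 in A2780 control and 0, 0 and 1.14 in Acis control, or 207 counts against 1, a ratio of 187.1 with a 95% counting interval of 33.2 to 7427. The neighbors were therefore both lower in Acis, COL4A5 with reads in every library and COL4A6 with a single read in the group. A second pair of neighbors, COL3A1 and COL5A2, lies tail to tail on chromosome 2 with 19151 bp between the genes, and differed by 1.13 and 0.14 on the log2 scale.

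Of the remaining genes, COL23A1, a transmembrane collagen, was higher in Acis control by 1.77 (SE 0.093, adjusted p = 1.84e-15) on the log2 scale, with 66.21, 74.97 and 74.68 normalized counts in A2780 control and 256.8, 243.8 and 232.4 in Acis control. COL18A1, the basement membrane collagen from which the fragment endostatin is released, differed by 0.90 (SE 0.070, adjusted p = 9.23e-12), below the threshold on size. COL26A1 was lower in Acis by 1.17 on the log2 scale in control cells (log2 difference -1.17, SE 0.12). COL7A1, the chain of the anchoring fibrils of skin, differed by -1.04 (SE 0.20, adjusted p = 5.53e-05), close to the threshold on size. Without replicate 1 of A2780 control the log2 difference of COL7A1 was -0.96, and without replicate 1 of Acis control it was -0.84.

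The make-up of the collagen transcripts differed accordingly. Collagen genes took 0.241% ± 0.0017 (SD, n = 3) of all counts in A2780 control and 0.393% ± 0.0065 in Acis control. In A2780 control the largest parts of these counts lay on COL5A2 (25.8%), COL6A3 (23.1%) and COL3A1 (15.8%), and in Acis control on COL12A1 (28.2%), COL3A1 (21.3%), COL11A1 (20.9%) and COL5A2 (17.5%). Per kilobase of exon the order was different. The highest levels in Acis control were those of COL3A1 (127.6 ± 2.27 CPM per kilobase, with CPM for counts scaled to a common library total), COL5A2 (97.1 ± 2.26), COL11A1 (93.4 ± 2.03) and COL12A1 (60.8 ± 0.13), and in A2780 control those of COL5A2 (88.2 ± 2.10), COL3A1 (58.3 ± 1.18), COL6A3 (26.85 ± 0.33) and COL1A1 (20.5 ± 1.39). In this order COL5A2 and COL11A1 of Acis control lay within 2 SD of each other, and the other neighbors named lay further apart. The SD covers the spread between libraries and not the choice of length. Per base of the longest transcript, COL11A1 (0.488) lay above COL5A2 (0.438) in Acis control, and COL12A1 (0.411) lay close to COL5A2. Reads were single-end and duplicates had been removed, which limits the number of reads a gene can keep to about the number of its exon bases. The counts of COL3A1 in Acis control reached 0.661 per base of its longest transcript, those of COL11A1 0.488, COL5A2 0.438 and COL12A1 0.411. With counts corrected for this limit, the log2 differences between the lines in control became 1.57 for COL3A1, 4.01 for COL11A1 and 6.63 for COL12A1.

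**Figure D2:**
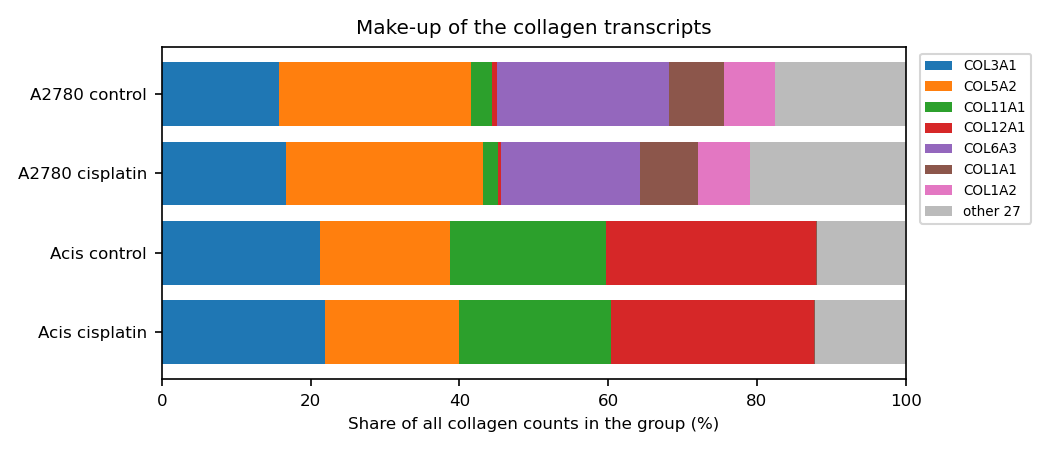
Share of all collagen counts in each group (%), with 7 genes shown by color and the other 27 collagen genes in gray. COL6A3, COL1A1 and COL1A2 fill part of both A2780 bars and are too thin to see in the Acis bars, where COL12A1 and COL11A1 take 28.2% and 20.9% in control.

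Promoters of the genes that differed were examined because the peaks described next lie on some of them. Of the 34 collagen genes, 24 had an entry in the RefSeq promoter table (build GRCh38.p14), with windows of 300 bases around a transcription start. COL1A1, COL1A2 and COL3A1 had none. The windows of 5 genes or starts are printed 5′ to 3′ in the direction of transcription, with capitals for exact matches, on either strand, to CCAAT or to GGGCGG, the core of the Sp1 site. COL11A1 and COL12A1, higher in Acis, and COL6A3 and COL4A5, lower, had the largest line differences in control among the genes that had an entry and averaged 100 normalized counts or more in any group, and the inner start of COL4A6 was added after the peaks were seen. COL11A1 lies at chr1:103108473-103108772 (minus strand), COL12A1 at chr6:75206004-75206303 (minus strand), COL6A3 at chr2:237414115-237414414 (minus strand), COL4A5 at chrX:108439588-108439887 (plus strand) and the inner COL4A6 start at chrX:108438373-108438672 (minus strand).
COL11A1: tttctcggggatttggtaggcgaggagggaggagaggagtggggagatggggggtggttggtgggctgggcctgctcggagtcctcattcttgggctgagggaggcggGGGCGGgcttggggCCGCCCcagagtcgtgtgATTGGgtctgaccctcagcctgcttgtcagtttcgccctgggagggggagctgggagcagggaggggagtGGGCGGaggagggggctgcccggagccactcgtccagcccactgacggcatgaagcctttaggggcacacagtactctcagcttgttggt
COL12A1: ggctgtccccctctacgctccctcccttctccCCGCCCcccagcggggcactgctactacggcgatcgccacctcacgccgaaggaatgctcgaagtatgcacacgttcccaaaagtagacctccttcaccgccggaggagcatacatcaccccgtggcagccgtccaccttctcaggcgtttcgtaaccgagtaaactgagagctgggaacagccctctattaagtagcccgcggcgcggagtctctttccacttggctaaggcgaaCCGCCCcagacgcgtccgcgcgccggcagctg
COL6A3: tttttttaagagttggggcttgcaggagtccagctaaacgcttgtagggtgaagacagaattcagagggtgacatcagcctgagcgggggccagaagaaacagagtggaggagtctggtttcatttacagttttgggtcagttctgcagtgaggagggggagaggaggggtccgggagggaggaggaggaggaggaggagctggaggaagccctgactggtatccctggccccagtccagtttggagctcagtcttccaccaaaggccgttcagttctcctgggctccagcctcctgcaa
COL4A5: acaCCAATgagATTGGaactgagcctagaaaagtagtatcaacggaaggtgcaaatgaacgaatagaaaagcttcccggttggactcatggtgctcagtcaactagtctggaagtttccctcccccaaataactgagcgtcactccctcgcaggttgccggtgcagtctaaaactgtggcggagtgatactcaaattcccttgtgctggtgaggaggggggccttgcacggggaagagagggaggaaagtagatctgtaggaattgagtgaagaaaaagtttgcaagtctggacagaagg
COL4A6 inner start: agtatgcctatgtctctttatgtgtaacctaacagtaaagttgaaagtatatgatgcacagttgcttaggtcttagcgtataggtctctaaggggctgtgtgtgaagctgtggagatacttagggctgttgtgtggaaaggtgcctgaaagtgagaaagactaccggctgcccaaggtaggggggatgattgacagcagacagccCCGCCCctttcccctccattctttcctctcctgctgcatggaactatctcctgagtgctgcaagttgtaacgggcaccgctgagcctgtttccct

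GGGCGG matched at 3 places in the COL11A1 window and at 2 in that of COL12A1, and CCAAT matched once in COL11A1 and at 2 places in COL4A5, while the COL6A3 window held none of the 5 motifs searched. Over the 31 windows of collagen genes, 64.5% held GGGCGG against 45.0% of all 35116 windows in the table, 32.3% held CCAAT against 34.6%, and 19.4% held TATAAA, the TATA box, against 11.5%. These windows are not independent, since some genes have several and some overlap, as those of COL5A1 do. G and C made up 40.7% to 86.7% of the bases of the collagen windows, and the median over all windows was 58.7%. The part of this base content in the shares was not tested. TGACTCA, the AP-1 site, and CACGTG, the E-box, matched in 0% of the collagen windows against 4.95% and 7.26% of all windows. A match describes letters in these windows and no binding.

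ATAC-seq peaks were then compared at the gene starts. The A2780 lists held 34979 peaks (control) and 32159 (cisplatin) and the Acis lists 24485 (control) and 27321 (cisplatin), and with 1 list per group no test could be made. A peak within 1 kb of the annotated start was found in A2780 for 7 of the 21 tested collagen genes in control and 8 after cisplatin, where 69.4% and 70.5% of all tested genes had such a peak, and in Acis for 11 and 12 of the 21, where 63.1% and 67.1% had. Over all 34 collagen genes the numbers were 8 and 10 in A2780, against 54.9% and 55.8% of all genes in the table, and 11 and 12 in Acis, against 49.2% and 52.5%. With a window of 5 kb the order of the lines was reversed, with 17 and 19 in A2780 and 13 and 13 in Acis. Of the 6 collagen genes higher in Acis control, COL3A1, COL11A1 and COL12A1 had a start peak in Acis control and none in A2780 control, and of all genes higher in Acis 10.0% did. Of the 9 lower in Acis control, 0 had a start peak in A2780 control alone, against 20.7% of all lower genes. COL4A5, 1 of these 9, had a start peak in Acis control alone, as did 0.576% of all lower genes. Among collagen genes not called, COL5A2 had a start peak in Acis control alone and COL5A1 in A2780 control alone. The Acis control peak at COL12A1 had a 12.3-fold enrichment and a -log10 q of 249.7 and overlapped the window printed above, and the peak at COL11A1 had a 6.33-fold enrichment and a -log10 q of 231.5. The nearest A2780 control peak lay 2562 bp from the start of COL12A1, 51416 bp from that of COL11A1 and 1351 bp from that of COL3A1.

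At the shared COL4A5 and COL4A6 starts, Acis control had a peak at chrX:108439478-108440228 with a 15.7-fold enrichment, which covers the COL4A5 window. A2780 control had instead a peak at chrX:108438010-108438678 with a 7.63-fold enrichment, which covers the inner COL4A6 window, and no peak within 1 kb of the COL4A5 start. This A2780 peak lay 819 bp from the annotated COL4A6 start, so COL4A6 had a start peak within 1 kb in both lines, while for COL4A5 only Acis had. COL4A6, COL1A1, COL6A1, COL23A1, COL26A1 and COL27A1 had start peaks in all 4 lists. For COL1A1, which was 51.6-fold lower in Acis control, only the A2780 control peak covered the annotated start itself. The nearest peak of each other list stopped short of that start, by 675 bp (Acis control), 629 bp (A2780 cisplatin) and 718 bp (Acis cisplatin). COL6A3, with its 249.0-fold difference, had no start peak in any list, nor did COL14A1, COL2A1, COL7A1, COL18A1 or COL6A2.

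**Figure D3:**
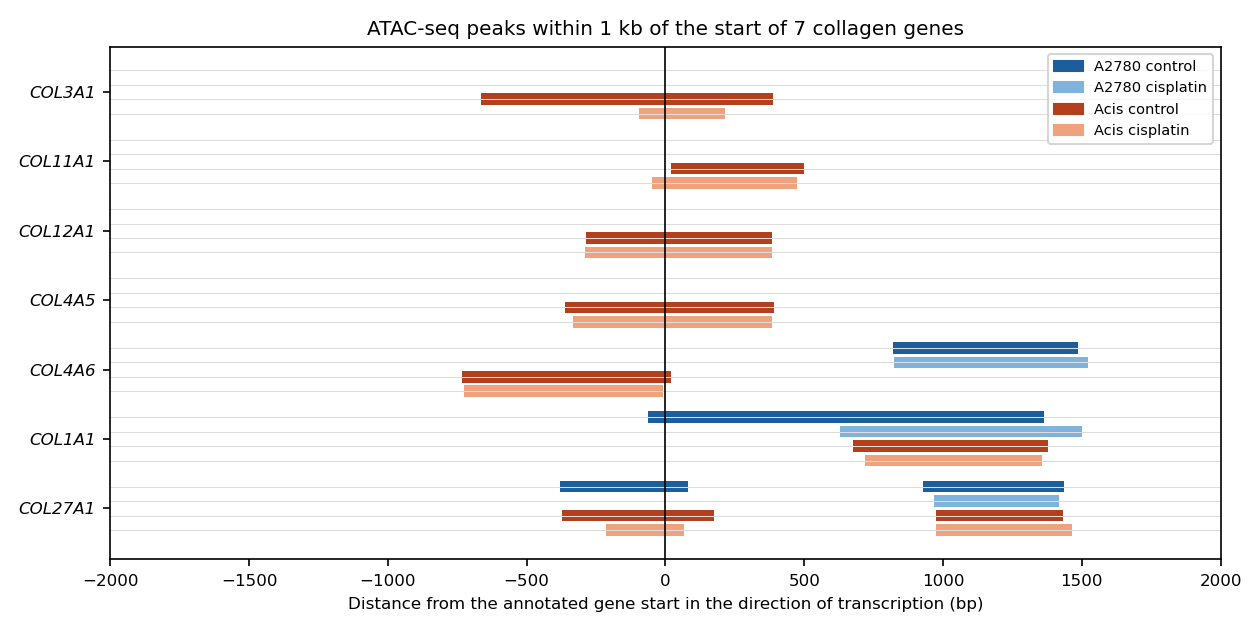
Peaks found within 1 kb of the annotated start of 7 collagen genes, as bars along the distance from the start in the direction of transcription (bp), with a row for each of the 4 peak lists. COL3A1, COL11A1, COL12A1 and COL4A5 have bars in the Acis rows only, and COL1A1 and COL27A1 have bars in all 4 rows.

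After cisplatin, 14 of the 15 genes called in control were called again in the same direction, COL27A1 being the exception. How many of all genes called in control were called again was not computed. Of the 21 tested collagen genes, 5 were higher and 9 lower in Acis cisplatin than in A2780 cisplatin past both thresholds. Of all tested genes 7.28% were higher and 11.9% lower, 19.2% in either direction. COL27A1 differed by 0.78 (SE 0.085, adjusted p = 6.99e-09), below the threshold on size. COL12A1 differed by 6.98 (SE 0.058) and COL11A1 by 4.25 (SE 0.047) on the log2 scale, and COL6A3 by -8.32 (SE 0.098). COL1A2 had 1862 counts in A2780 cisplatin and 1 in Acis cisplatin.

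The next comparisons asked how 3 h of cisplatin changed the collagen genes in each line. In A2780, 1 collagen gene passed both thresholds, where 5.62% of all tested genes did and 1.48% did as lower. This was COL12A1, which fell from 69.0, 75.9 and 59.75 to 39.4, 27.1 and 34.4 normalized counts (log2 change -1.02, SE 0.15, adjusted p = 2.07e-06). The call of COL12A1 rested on the threshold on size, since its log2 change was -0.89 without replicate 2 of A2780 cisplatin and -0.95 without replicate 2 of A2780 control. At the adjusted p alone, 11 collagen genes fell and 2 rose in A2780, where 28.2% of all tested genes fell and 21.2% rose. The median log2 change of the 21 genes was -0.33, against -0.01 for all tested genes.

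COL11A1 fell from 305, 342 and 329 to 167, 157 and 183 normalized counts in A2780 (log2 change -0.95, SE 0.072, adjusted p = 3.09e-11). COL6A3 fell from 2664, 2658 and 2604 to 1629, 1631 and 1526 (log2 change -0.73, SE 0.030, adjusted p = 2.24e-16). The other type VI chains changed by -0.23 (COL6A1, SE 0.062, adjusted p = 0.00327) and -0.08 (COL6A2, SE 0.075, adjusted p = 0.392), and the difference from COL6A3 was not tested. The fall of COL6A1 did not pass by edgeR with total counts as library size (log2 change -0.11, adjusted p = 0.14). COL4A5 and COL4A6, the head-to-head neighbors, fell by 0.56 and 0.57 on the log2 scale. COL4A6 did not pass with DESeq2 (adjusted p = 0.0954). It did not pass by edgeR without replicate 1 of A2780 control either (log2 change -0.37, adjusted p = 0.0853). COL1A1 fell by 0.35, COL1A2 by 0.40, COL3A1 by 0.33 and COL5A2 by 0.38, and the libraries of these 4 genes did not overlap between A2780 control and A2780 cisplatin. COL7A1 rose from 78.3, 72.1 and 58.7 to 162.2, 121.0 and 113.9 normalized counts (log2 change 0.92, SE 0.14, adjusted p = 3.29e-06), and COL11A2 rose by 0.68 (SE 0.26, adjusted p = 0.0276). COL11A2 did not pass with DESeq2 (adjusted p = 0.133).

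In Acis no collagen gene passed both thresholds, where 2.01% of all tested genes did (edgeR). Of the collagen genes with an unadjusted p under 0.05 by edgeR in Acis, only COL6A3 passed the threshold on size, and DESeq2 called 0 at both thresholds. At the adjusted p alone, 7 collagen genes fell and 1 rose, where 12.4% of all tested genes fell and 9.35% rose. COL12A1 fell from 5230, 5239 and 5252 to 4195, 4273 and 4341 normalized counts (log2 change -0.30, SE 0.025, adjusted p = 1.48e-09), and COL11A1 from 3919, 3942 and 3786 to 3158, 3188 and 3281 (log2 change -0.28, SE 0.028, adjusted p = 2.56e-08). Both genes were separated between control and cisplatin in all libraries. COL3A1 fell by 0.20, COL5A2 by 0.21, COL18A1 by 0.29, COL27A1 by 0.45 and COL4A5 by 0.50 on the log2 scale. COL7A1 rose by 0.73 (SE 0.21, adjusted p = 0.0119) and lost this call without replicate 1 of Acis control (adjusted p = 0.0997) or of Acis cisplatin (adjusted p = 0.0557). COL6A3, with a mean of about 10 counts in Acis control, changed by -1.09 (SE 0.38, adjusted p = 0.0568).

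Whether the cisplatin change differed between the lines was tested by the interaction. It passed at the adjusted p alone for 5 of the 21 collagen genes, where 18.9% of all tested genes passed, 13.4% with a more positive change in Acis and 5.48% with a more negative one. The fall was smaller in Acis for COL11A1 (difference of log2 changes 0.67, SE 0.078, adjusted p = 1.17e-06), COL12A1 (0.73, SE 0.15, adjusted p = 0.00113), COL5A2 (0.18, SE 0.040, adjusted p = 0.00255) and COL3A1 (0.13, SE 0.043, adjusted p = 0.0383), and it was larger in Acis for COL27A1 (-0.41, SE 0.12, adjusted p = 0.0167). For COL11A1 and COL12A1 the line with the smaller relative fall was the line with the far higher level. COL3A1 and COL27A1 lost this call under several alternatives given with the processing.

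Many collagen genes are long, and cisplatin lesions block the RNA polymerase, so changes were set beside those of all genes of like length. In A2780 the median log2 change of all tested genes went from 0.18 in genes under 20 kb to -0.44 in genes over 200 kb, and in Acis from 0.08 to -0.22. Among collagen genes averaging 10 or more normalized counts in control, 14 of 20 lay below the median of all tested genes of their length class in A2780 and 12 of 17 in Acis. In A2780, COL12A1, COL11A1, COL6A3, COL1A1, COL1A2, COL2A1, COL3A1 and COL6A1 lay below the lower quartile of their class, and COL7A1, COL11A2, COL23A1, COL26A1 and COL27A1 lay above the upper quartile. These places take no account of the SE, and COL2A1, COL6A1 and COL26A1 lay closer to the quartile than their SE. In Acis, COL1A1, COL3A1, COL4A5, COL6A1, COL6A2, COL6A3, COL12A1 and COL27A1 lay below the lower quartile, and COL7A1 and COL11A2 above the upper. COL1A1 spans 17532 bp and COL11A1 232406 bp. COL23A1, the longest tested collagen gene at 352918 bp, changed by 0.01 (SE 0.12) in A2780. The part of gene length in these changes was not tested.

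**Figure D4:**
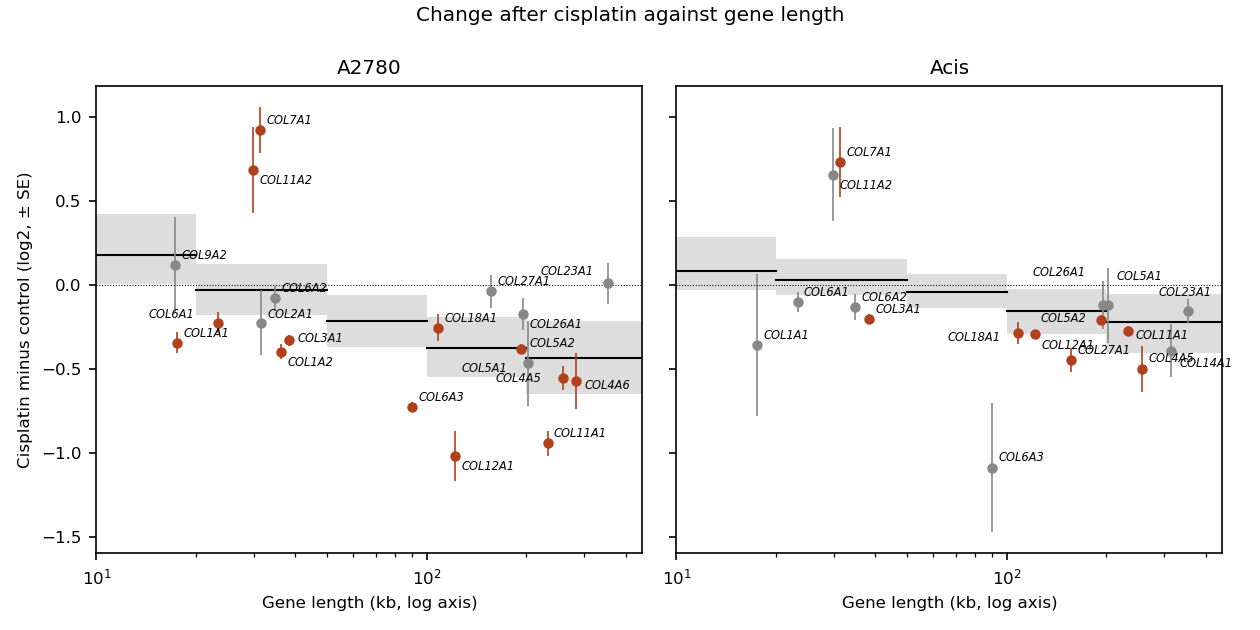
Log2 change after cisplatin (± SE) against gene length (kb, log axis) in A2780 (left, 20 collagen genes) and Acis (right, 17), for genes whose control libraries of that line averaged 10 or more normalized counts, in red where the adjusted p was under 0.05. Black lines and gray bands give the median and the range between the quartiles of all tested genes in each length class, with the outer classes drawn only as far as the axis, and COL12A1 and COL11A1 lie below the band in A2780 at -1.02 and -0.95.

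Other genes of the collagen pathway were taken from lists by role, and up to 4 per list with the smallest adjusted p of the line difference in control are named. Of 22 tested genes for collagen synthesis and folding, 2 were higher and 3 lower in Acis control past both thresholds, where 6.99% of all tested genes were higher and 12.2% lower. P4HA2, a subunit of the enzyme that hydroxylates prolines, went from 151.3 ± 14.5 (SD, n = 3) normalized counts in A2780 control to 546.0 ± 12.5 in Acis control, and SEC24D, a coat protein of procollagen export, from 327.4 ± 21.1 to 743.8 ± 21.6. COLGALT2, which adds galactose to collagen, went from 288.7 ± 14.8 to 68.1 ± 4.37, and CREB3L1, a transcription factor of type I collagen genes, from 102.9 ± 5.52 to 7.24 ± 2.17. CREB3L1, COL1A1 and COL1A2 were all low in Acis control, and a link between them was not tested.

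Of 13 tested genes for procollagen processing and crosslinking, 4 were lower and 0 higher past both thresholds, against the same 12.2% and 6.99% of all tested genes, among them ADAMTS3, a procollagen peptidase (log2 difference -1.45, SE 0.068), and LOX, a lysyl oxidase (-2.98, SE 0.23). LOXL2, a related crosslinking enzyme, and BMP1, which removes the C-terminal propeptide, differed by -0.85 and 0.67, below the threshold on size. Of 11 tested partners of fibrils, 3 were higher and 7 lower in Acis control, against 6.99% and 12.2%. THBS1, a matrix glycoprotein, went from 1352 ± 66.3 normalized counts in A2780 control to 3.65 ± 1.33 in Acis control, and POSTN, which binds type I collagen, from 1597 ± 27.9 to 59.9 ± 3.71. The fibrillins moved apart, FBN2 from 947.3 ± 23.2 to 106.2 ± 11.99 and FBN1 from 265.6 ± 14.4 to 1089 ± 34.7.

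Of 9 tested basement membrane partners, 1 was higher and 2 were lower, where 6.99% of all tested genes were higher and 12.2% lower. NID2, a nidogen that links laminin to type IV collagen, had 1513 counts in A2780 control and 1 in Acis control, LAMA1, a laminin chain, had 2545 and 4, and LAMC3, another laminin chain, had 177 and 2092. NID1 differed by -0.69 (SE 0.035). Of 9 tested collagen receptors, 3 were lower and 0 higher (12.2% and 6.99% of all tested genes), among them ITGA1, the integrin chain that pairs with ITGB1 to bind collagen, with 1517 counts in A2780 control and 3 in Acis control, and ADGRG1, an adhesion receptor, with 103 and 3. DDR2, a receptor kinase for fibrillar collagen, and ITGB1 differed by -0.69 and -0.37. Of 11 tested proteases and inhibitors, 2 were higher and 2 lower, against the same 6.99% and 12.2%. MMP1, a collagenase, went from 58.4 ± 6.09 to 1048 ± 21.6 normalized counts and MMP16 from 55.97 ± 3.22 to 432.7 ± 23.0, TIMP3, a matrix-bound inhibitor, from 1070 ± 24.3 to 3.97 ± 0.48, and MMP15 differed by 0.95 (SE 0.067).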

How the data were processed

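RNA-seq and ATAC-seq of the A2780 and Acis lines were used. The authors aligned single-end stranded reads to hg38 with STAR 2.7.3, removed duplicates with Picard, counted reads per gene by strand with HTSeq 0.11.1, and deposited raw counts. For ATAC-seq, the authors aligned with Bowtie2 2.4.1, called peaks with MACS2, kept those shared by all replicates, and deposited for each peak a fold enrichment, a ratio over local background. Significance of peaks is given as the -log10 q that the authors deposited.

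Counts were fitted in R 4.3.3 with edgeR 4.0.16 (TMM, filterByExpr, quasi-likelihood test, 4 groups over 12 libraries, 8 residual degrees of freedom), with p-values adjusted by Benjamini-Hochberg over all 15760 tested genes. Calls used an adjusted p under 0.05 and an absolute log2 difference of at least 1, and for the interaction and where stated the adjusted p alone. The test was checked on simulated data. DESeq2 1.42.0 was an alternative. Genes, lengths and positions came from GENCODE 44. Ratios against a group with 1 to 3 counts have exact 95% intervals, and both these and the floor of 3 counts cover counting error only. Collagen genes named are those called in any comparison, those averaging 100 or more normalized counts in a group, and those past the adjusted p alone. The genes and lists were chosen with earlier results of these data known. Squared differences between replicates were 0.73 to 1.53 times the counting noise. All 3 pairs of A2780 control, replicates 2 and 3 of A2780 cisplatin and of Acis control, and replicates 1 and 2 of Acis cisplatin differed by less than the counting noise. All libraries were kept as replicates, since removing duplicates can narrow this spread. Its part in these ratios was not tested, and summing the closest pair was an alternative.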

Additional observations from a re-analysis of the deposited data

Results flagged for a closer look

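The change after cisplatin differed between the lines, by the interaction test of edgeR at an adjusted p under 0.05, for 5 collagen genes, and no explanation was weighed. The difference of log2 changes (Acis minus A2780) was 0.67 for COL11A1, 0.73 for COL12A1, 0.18 for COL5A2 and 0.13 for COL3A1, all with a smaller fall in Acis, and -0.41 for COL27A1. Of all tested genes 18.9% passed, 13.4% with a more positive change in Acis and 5.48% with a more negative one. Of the 75 tested genes of the other collagen pathway lists, 12 passed with a more positive change and 1 with a more negative one. Among the named genes of these lists, MMP16 (1.16), ADAMTS3 (0.77), COLGALT2 (0.61), FBN1 (0.42), P4HA2 (0.41), LOXL2 (0.30), DDR2 (0.28), ITGB1 (0.19) and NID1 (0.18) also differed, each with a more positive change in Acis. The gene with the more negative change was TIMP1 (-0.21), a protease inhibitor that was named after its value was seen. ADAMTS3 went from 491.3 to 227.5 mean normalized counts in A2780 and from 180.7 to 142.6 in Acis. Groups of 3 libraries are too small for the test of a library that stands apart from its group.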

How the results depend on the processing

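No collagen call reversed in any of 1195 repeats of the 55 single calls under the alternatives, and 1163 kept their side of the threshold. The repeats at an adjusted p under 0.01 kept the log2 value of the main fit and could not reverse. Some repeats left out a library of a group that was not compared. These totals are therefore a tally and no measure of how firm the calls are. Without a filter on low counts, 15 collagen genes instead of 9 were lower in Acis both in control and after cisplatin. In that fit 1 gene (COL20A1) rose in Acis past both thresholds after cisplatin and 2 rose at the adjusted p alone. The shares of all genes called in that fit were not computed. In A2780, the genes rising and falling past both thresholds after cisplatin were 1 (COL7A1) and 0 with total counts as library size, and 0 fell with at least 50 counts on average or in a fit of only the 2 groups. The genes rising in A2780 at the adjusted p alone were 1 with at least 50 counts on average, with DESeq2 and at an adjusted p under 0.01. In Acis, 1 gene (COL6A3) fell past both thresholds with at least 50 counts on average, and the genes rising at the adjusted p alone were 2 in a fit of only the 2 groups and 0 at an adjusted p under 0.01. No interaction in the direction of COL27A1 passed (0) with DESeq2 or at an adjusted p under 0.01. Leaving out single libraries gave 0 to 1 genes rising and 0 to 2 falling past both thresholds in A2780 after cisplatin, 1 to 2 rising at the adjusted p alone in A2780 and 0 to 2 in Acis, 0 to 1 interactions in the direction of COL27A1, and 8 to 9 genes lower in Acis in control. The interaction of COL3A1 (0.13) was lost with DESeq2 (adjusted p = 0.172), with total counts (0.303) and with corrected counts (0.102).

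With the longest transcript as length, the ratio of COL1A1 to COL1A2 in A2780 control was 1.09, of COL5A2 to COL5A1 139.0, of COL6A3 to COL6A1 2.7, and of COL6A1 to COL6A2 1.13 in A2780 control and 1.21 in Acis control. Start peaks are given in the order A2780 control, A2780 cisplatin, Acis control, Acis cisplatin. With a window of 5 kb, 17, 19, 13 and 13 collagen genes had one, against 65.6%, 66.2%, 58.4% and 62.0% of all genes. A2780 thus had more than Acis, the reverse of the order at 1 kb. When the start had to lie in a peak, 4, 2, 6 and 7 had one, against 43.4%, 40.6%, 38.9% and 38.8%. Among the 20000 strongest peaks, 5, 4, 11 and 11 had one, against 46.7%, 47.9%, 46.4% and 47.6%. The replicate numbers did not pair the samples (correlations of libraries with the same number from -0.068 to 0.113), and with the replicate number as a block the counts of calls were those of the fit without it, 6 higher and 9 lower for the lines in control, 5 and 9 after cisplatin, 0 and 1 for cisplatin in A2780, 0 and 0 in Acis, and 4 and 1 for the interaction. Counts corrected for duplicate removal were added after seeing the data. The comparison of protein sequences that was planned was not run. The cause of these changes was not tested.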
